A study of Mus musculus with 8 samples.

Results

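The regions described here are METTL14 CUT&RUN sites of mouse embryonic stem cells (ESCs) that lie beside a pair of closely spaced genes. Peaks of the 4 METTL14 libraries that shared at least 1 bp were merged, which gave 8091 regions. A region was kept, whatever the number of libraries calling it, when it lay within 2 kb of a boundary (start or end) of at least 2 different protein-coding genes of the mm10 RefSeq table. Hox genes and histone genes were taken out of the table first. The rule kept 778 regions, 9.62% of all merged METTL14 regions. A further 2971 regions (36.7%) lay near exactly 1 gene and 4342 (53.7%) near none.

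METTL3, the catalytic subunit, and METTL14 together place N6-methyladenosine (m6A) on nuclear RNA. CUT&RUN cuts and recovers DNA where an antibody has bound chromatin. The ESCs, of strain C57BL/6, grew in serum with LIF and the inhibitors CHIR99021 and PD0325901. METTL14 was immunotargeted with a rabbit antibody in 2 groups, labelled Mettl3 Control and Mettl3 CKO. METTL3 was targeted in another 2, whose labels are Mettl14 Control and Mettl14 CKO. Each group has 2 libraries. The labels do not spell out CKO, name a Cre or a clone, or say whether replicate libraries were grown as separate cultures, so the spread between them may be technical. The lists hold no expression values, so neither the ESC label nor the loss of METTL3 was checked here.

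In mammals many neighbouring genes are transcribed away from each other from a shared stretch of DNA, called a bidirectional promoter. Such divergent pairs are known to be frequent among housekeeping genes, and their promoters are typically rich in CpG dinucleotides and often lack a TATA box. Neighbours can also lie head to tail (tandem) or end to end (convergent), where the short interval between them holds 1 gene start or none. A peak near 2 genes therefore cannot be assigned to either of them by position alone.

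Each library is a separate list of peaks, with 3129 and 3546 METTL14 peaks in Control replicates 1 and 2, and 3922 and 1439 in CKO replicates 1 and 2. The CKO replicate 2 list is much the shortest. The deposited score is 1 for every peak, so a list shows only where a peak was called and in which order. Read depth is not given in the sources used here. The position of a peak in its list is used below as a rank, where a low number means near the head of the list; what the authors ordered the lists by is not given.

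The 778 regions involved 1265 genes in 689 gene pairs. Counting the 2 genes closest to each region, there were 630 pairs, of which 513 had a single region, 96 had 2 and 21 had 3 or more. At 747 regions exactly 2 genes were near, at 28 there were 3, and at 3, all on mitochondrial DNA, 4 or more. Regions were narrow, from 149 to 363 bp with a median of 149 bp. Chromosome 7 held 125 regions (16.1%), against 9.53% of all close gene pairs. Chromosome X held 4 (0.514%), against 2.15% of close pairs. A close pair is here any 2 protein-coding genes with boundaries at most 4 kb apart.

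DNA between the gene starts is shown for 7 divergent pairs, as the setting in which their regions lie. They are among the best ranked divergent pairs called in all 4 libraries for which the RefSeq promoter table (GRCm38.p6, the assembly behind mm10) gives the bases overlapped by the region. The stretch between Hnrnpa2b1 and Cbx3, also a divergent pair with a region called in all 4 libraries, is not shown. Only bases lying between the 2 genes are shown, on the + strand from 5′ to 3′. Capitals mark matches, on either strand, to the GC box GGGCGG, the CCAAT box, the E box CACGTG and the NRF1 core TGCGCATGC. Matches of the NRF1 core to both strands, and of CCAAT to both strands, can overlap in a palindrome. A match is a description of the letters, and no binding was measured for these factors. The stretches are not the regions themselves: of 1303 bases shown, 794 lie in a METTL14 region.
Rita1–Ddx54, chr5:120612590-120612839: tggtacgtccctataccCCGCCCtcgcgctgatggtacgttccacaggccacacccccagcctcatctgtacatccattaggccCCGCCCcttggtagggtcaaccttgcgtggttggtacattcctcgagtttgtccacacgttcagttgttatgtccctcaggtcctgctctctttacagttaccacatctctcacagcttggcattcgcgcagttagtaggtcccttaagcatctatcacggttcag
Gbx2–LOC102637806, chr1:89931177-89931426: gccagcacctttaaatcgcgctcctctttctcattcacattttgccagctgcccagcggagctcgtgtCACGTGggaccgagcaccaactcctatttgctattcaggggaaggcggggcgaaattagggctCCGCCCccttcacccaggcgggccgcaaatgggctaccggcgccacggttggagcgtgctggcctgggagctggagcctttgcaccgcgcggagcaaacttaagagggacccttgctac
Mphosph10–Mcee, chr7:64392372-64392621: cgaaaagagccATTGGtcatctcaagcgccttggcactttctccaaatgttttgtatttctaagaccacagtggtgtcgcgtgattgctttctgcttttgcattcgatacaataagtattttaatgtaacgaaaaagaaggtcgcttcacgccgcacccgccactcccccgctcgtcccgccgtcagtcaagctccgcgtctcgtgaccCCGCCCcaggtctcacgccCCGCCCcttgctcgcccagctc
Bzw2–Ankmy2, chr12:36156842-36157091: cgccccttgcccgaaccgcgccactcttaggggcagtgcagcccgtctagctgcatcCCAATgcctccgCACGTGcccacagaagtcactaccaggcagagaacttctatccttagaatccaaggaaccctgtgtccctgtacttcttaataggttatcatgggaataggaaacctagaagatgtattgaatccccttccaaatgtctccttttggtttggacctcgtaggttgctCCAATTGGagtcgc
Eif3k–Map4k1, chr7:28981891-28982049: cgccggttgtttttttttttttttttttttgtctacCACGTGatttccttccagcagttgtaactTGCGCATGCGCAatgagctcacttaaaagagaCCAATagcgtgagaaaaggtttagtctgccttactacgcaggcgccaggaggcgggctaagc
Bfsp1–Dstn, chr2:143915220-143915330: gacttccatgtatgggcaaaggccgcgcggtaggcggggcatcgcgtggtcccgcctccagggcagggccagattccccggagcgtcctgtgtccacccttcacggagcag
Armh1–Tmem53, chr4:117251918-117251950: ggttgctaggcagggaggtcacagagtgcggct

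The whole space between the genes is 33 bp at Armh1–Tmem53, 111 bp at Bfsp1–Dstn and 159 bp at Eif3k–Map4k1. At the other 4 pairs, 250 bp of a gap of 282 to 898 bp is shown. None of these motifs was found in the windows of Bfsp1–Dstn and Armh1–Tmem53. Of the 15 matches in the 7 stretches, 6 lie in a METTL14 region. These are all 4 at Eif3k–Map4k1, an E box among them, and 2 of 4 at Bzw2–Ankmy2, the E box and the CCAAT box before it. All matches at Rita1–Ddx54, Gbx2–LOC102637806 and Mphosph10–Mcee, including the E box beside Gbx2, lie outside the region. The region covers 33 of the 111 bases at Bfsp1–Dstn, 92 of 250 beside Gbx2, 136 of 250 at Rita1–Ddx54 and 180 of 250 at Mphosph10–Mcee. The pairs mix gene functions: Ddx54 encodes an RNA helicase, Gbx2 a homeobox transcription factor, Mphosph10 a protein of the U3 snoRNP, Mcee a mitochondrial epimerase, Eif3k a subunit of the translation initiation factor eIF3, Map4k1 a kinase known from blood cells, Bfsp1 a filament protein of the eye lens and Dstn an actin-severing protein.

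The 300-bp RefSeq promoter windows (250 bp before to 50 bp after a start) were then searched for the same motifs across all genes. Windows of divergent pairs with a METTL14 region held the E box CACGTG in 94 of 654 genes (14.4%, Wilson 95% interval 11.9 to 17.3%). Windows of divergent pairs without one held it in 9.46% of 1639, and all 17369 windows in 7.94%. Among genes of pairs whose region was called in at least 2 libraries it was 43 of 290 (14.8%, 11.2 to 19.4%), level with the share for any region. With a region called in all 4 libraries it was 12 of 48 (25.0%, 14.9 to 38.8%), a small set with a wide interval. The GC box was found in 67.4% of windows of divergent pairs with a region, 57.5% of those without one and 46.4% of all windows. For the CCAAT box the shares were 44.5%, 38.6% and 39.0%. The ETS core CCGGAAG stood in 21.7%, 24.8% and 12.0%, and so did not have a higher share in pairs with a region than in divergent pairs without one. The NRF1 core was found in 2.60%, 3.23% and 2.07%, the YY1 core AAGATGGCG in 3.98%, 4.82% and 1.93%, and the TATA box TATAAA in 5.96%, 5.55% and 13.2%. These shares are descriptions with no test, since the 2 genes of a pair often share the same bases. They count matches anywhere in the window, within the METTL14 region or not.

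Most regions with known strand lay near pairs of genes transcribed away from each other. Strand was available from the promoter table for 17369 of 21754 genes (79.8%), which gave the orientation of both nearest genes at 575 of the 778 regions. Of these, 402 were divergent (69.9%, 66.0 to 73.5%), 150 tandem (26.1%), 13 convergent (2.26%) and 10 nested, one gene within the other (1.74%). Among all 4364 close pairs with both strands, 27.0% were divergent, 36.5% tandem, 33.5% convergent and 3.02% nested. The divergent share was similar in every library: 69.0% of 226 regions in Control replicate 1, 70.3% of 273 in Control replicate 2, 70.1% of 321 in CKO replicate 1 and 74.6% of 114 in CKO replicate 2. Intervals cover counting error only. The share depends on the window: it was 78.8% within 1 kb and 53.2% within 5 kb.

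Read from the gene side, 689 of 6661 close pairs had a region near both genes, a background of 10.3%. Of 1178 divergent pairs 332 had one (28.2%, 25.7 to 30.8%). For tandem pairs it was 134 of 1591 (8.42%, 7.16 to 9.89%), for convergent pairs 28 of 1463 (1.91%, 1.33 to 2.75%), for nested pairs 10 of 132 (7.58%) and for pairs without both strands 185 of 2297 (8.05%). By library, divergent pairs were called in 12.5% and 15.8% with the control lists and in 18.2% and 7.05% with the CKO lists. Tandem pairs had 3.77%, 4.46%, 5.34% and 1.95% in the same order, and convergent pairs 0.820%, 1.03%, 0.889% and 0.205%. The order divergent, tandem, convergent was the same in all 4 libraries. A region called in all 4 libraries was found at 26 divergent pairs (2.21%), 12 tandem pairs (0.754%) and no convergent pair (0 of 1463, Wilson upper bound 0.262%). Pairs that share a gene are not independent of each other. Orientation was not analysed for pairs on chromosome 18 or on mitochondrial DNA. Chromosome 18 held 6 of the 778 regions (0.771%), against 7.36% of all close pairs.

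**Figure D1:**
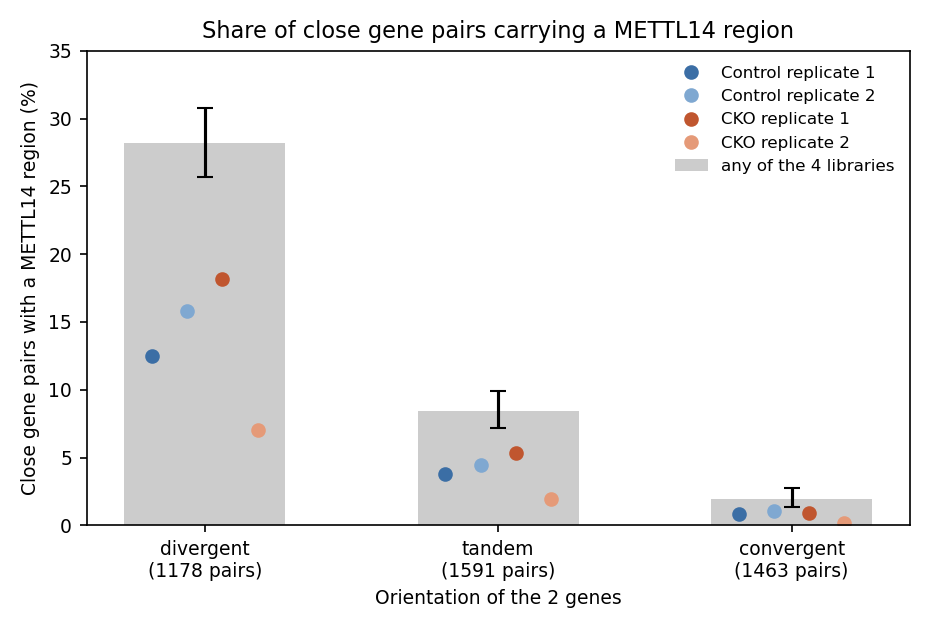
Percent of close gene pairs (boundaries at most 4 kb apart) with a METTL14 region near both genes, by orientation. Grey bars give the share with a region of any library and black lines its Wilson 95% interval; coloured points give each library alone. Divergent pairs stand at 28.2%, tandem pairs at 8.42% and convergent pairs at 1.91%, and the points keep that order in each of the 4 libraries.

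Within the divergent class the share was lowest where the genes were farthest apart. Divergent pairs whose bodies overlap had a region in 118 of 419 cases (28.2%). With up to 250 bp between the starts it was 143 of 446 (32.1%, 27.9 to 36.5%), with 251 to 500 bp 41 of 83 (49.4%, 38.9 to 59.9%), and with 501 to 1000 bp 15 of 42 (35.7%, 23.0 to 50.8%). With 1001 to 4000 bp it was 15 of 188 (7.98%, 4.89 to 12.7%). The stretch lying within 2 kb of both genes shrinks as the genes move apart, so the rule itself lowers the last share.

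The regions sat close to the gene starts. Of the 575 regions with strand, 563 (97.9%) had at least 1 gene start within 2 kb, and 417 (72.5%) had at least 2. These counts follow largely from the rule and the orientations. A region near both facing boundaries of a divergent pair is near 2 starts, and at a tandem pair near 1. At divergent pairs the centre of the region lay a median of 148.0 bp from the nearest start, within 200 bp in 276 of 402 (68.7%) and within 500 bp in 372 (92.5%). The centre was on the gene side of that start in 242 (60.2%). At tandem pairs the median was 241.0 bp, with 60 of 150 centres (40.0%) within 200 bp and 70 (46.7%) on the gene side. Distances were taken to the nearer of the 2 starts of a pair. At divergent regions these starts lay a median of 211.5 bp apart, so a centre between them cannot lie far before either. The values of divergent and tandem pairs are therefore not directly comparable. Over all 778 regions the centre fell between the genes in 200 (25.7%), inside 1 gene of the pair in 475 (61.1%), inside both in 86 (11.1%) and outside both in 17 (2.19%). Exons, introns and UTRs were not analysed here. In the strict sense of lying between the genes, the name of these sites thus holds for 25.7% of them.

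**Figure D2:**
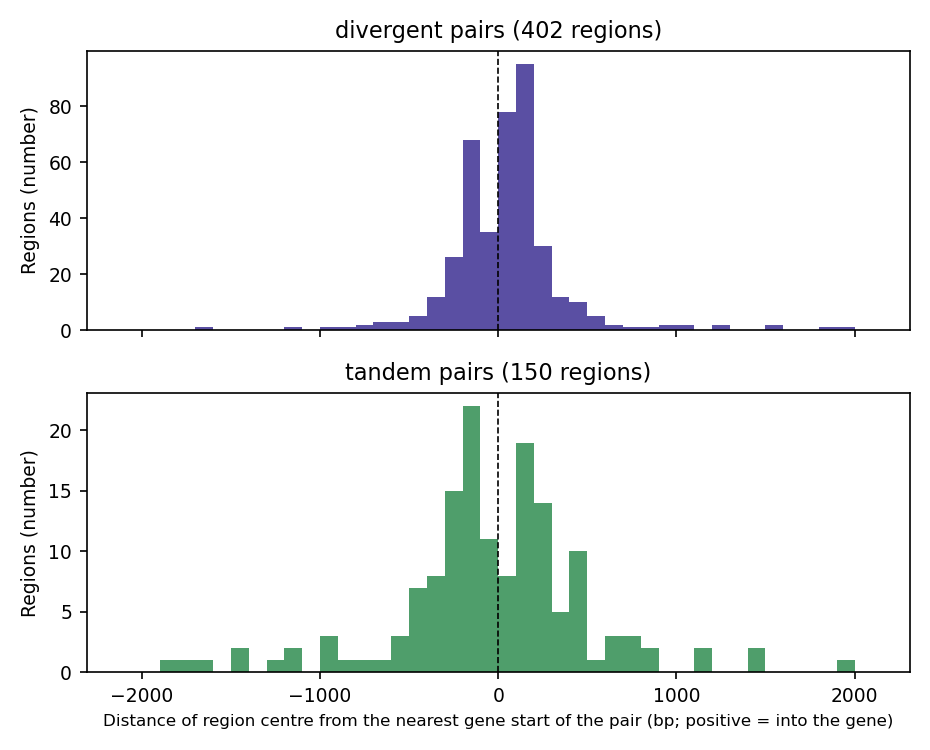
Distance in bp from the centre of each region to the nearest gene start of its pair, for 402 regions at divergent pairs and 150 at tandem pairs; positive values lie inside the gene and bars count regions in steps of 100 bp. Of the divergent regions, 171 lie 0 to 200 bp into the gene and 105 lie 0 to 200 bp before it; for tandem pairs these counts are 27 and 33.

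Starts with a divergent partner were also compared with lone starts, counting any METTL14 region within 2 kb of the start. This comparison was added after the data were seen. The stretch around a start with a close partner also covers the partner's start, so a peak at either start counts for both genes. Of 2304 gene starts with a divergent partner start within 4 kb, a peak was near 13.5% and 16.9% in the control libraries and 19.8% and 7.68% in the CKO libraries. Of 12792 starts with no other gene boundary within 4 kb it was 4.78%, 6.09%, 7.49% and 2.92%. The mean difference was 9.14 percentage points, higher for divergent starts in 4 of 4 libraries (exact sign-flip permutation over libraries, two-sided, p = 0.125, the smallest p that 4 libraries can give; adjusted over 5 such tests 0.156). With lists shortened to the shortest it was 4.41 points. Of 1432 starts near which other genes only end, 5.87%, 7.75%, 9.50% and 2.79% had a peak, 7.99 points below divergent starts (4 of 4 libraries, exact sign-flip permutation p = 0.125, adjusted 0.156). Promoter windows differ in base composition between these classes, with a median of 22.0 CpG per window in close divergent pairs and 10.0 at lone starts. Among divergent pairs the median was 23.0 with a region and 21.0 without. The part of CpG content in the difference was not tested.

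Most of the regions were called in few libraries. Of the 778, 466 (59.9%) were called in exactly 1 library, against 70.7% of all merged regions. There were 166 (21.3%) called in 2, 86 (11.1%) in 3 and 60 (7.71%, 6.04 to 9.80%) in all 4, against 5.78% of all merged regions and 5.59% of regions near 1 gene. Control replicate 1 called 307 of them, 9.81% of its list, and Control replicate 2 called 378 (10.7%). CKO replicate 1 called 439 (11.2%) and CKO replicate 2 called 172 (12.0%). The numbers of the 2 CKO libraries lie on either side of both controls, with 342.5 ± 50.2 (SD, n = 2) in the controls and 305.5 ± 188.8 (SD, n = 2) in the CKO libraries, a difference of −0.31 on the log2 scale (exact permutation of the 4 labels, two-sided, p = 1.00, smallest possible 0.333). The direction rests on the short list of CKO replicate 2: without it the difference was 0.37. As a share of the list, both CKO libraries were above both controls, 11.6 ± 0.537% against 10.2 ± 0.600% (SD, n = 2 each), by 1.34 points (exact permutation p = 0.333, the smallest possible). With lists shortened to the 1439 peaks at their heads the difference was 0.660 points, and the CKO libraries were no longer both above both controls. In the full lists, peaks near exactly 1 gene also had higher shares in both CKO libraries, with a wider gap. Their shares were 34.0% and 37.0% of the control lists and 40.6% and 42.3% of the CKO lists.

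**Figure D3:**
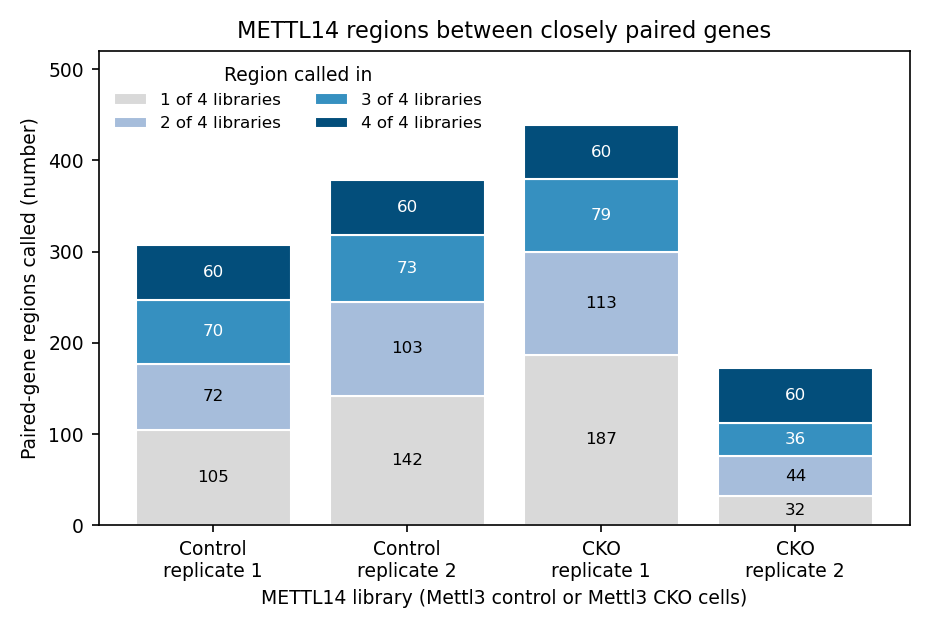
Number of paired-gene regions called in each METTL14 library, stacked by how many of the 4 libraries called the region. The same 60 regions form the top block of every bar; regions called in that library alone number 105 and 142 in the controls, 187 in CKO replicate 1 and 32 in CKO replicate 2.

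A peak beside paired genes was found again in another library more often than a peak beside a single gene, in each of the 4 lists. In Control replicate 1, 65.8% of peaks at paired-gene regions and 59.7% of peaks near 1 gene overlapped a peak of another METTL14 library. The values were 62.4% and 54.2% in Control replicate 2, 57.4% and 49.4% in CKO replicate 1, and 81.4% and 76.5% in CKO replicate 2. The mean difference was 6.82 points, in 4 of 4 libraries (exact sign-flip permutation, two-sided, p = 0.125, the smallest possible; adjusted 0.156). Against peaks near no gene it was 15.1 points (4 of 4 libraries, exact sign-flip permutation p = 0.125, adjusted 0.156). The 4 values are not fully independent, since each library is also what the others are compared with. Taken by region, the mean position in the lists calling it had a median of 55.7% for paired-gene and 54.4% for single-gene regions. For regions near no gene it was 62.7%. A region called in 1 library weighs as much here as a shared one, so these medians also depend on how many regions are shared. Paired-gene regions called in all 4 libraries had a median mean position of 33.4%, those called in 1 library 64.5%. For divergent pairs minus other orientations the difference was −0.777 points, higher in 2 of 4 libraries (exact sign-flip permutation p = 0.875, adjusted 0.875). Its sign and size were not stable: it was −6.10 with shortened lists, 0.654 without Control replicate 2 and 3.64 without CKO replicate 2.

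**Figure D4:**
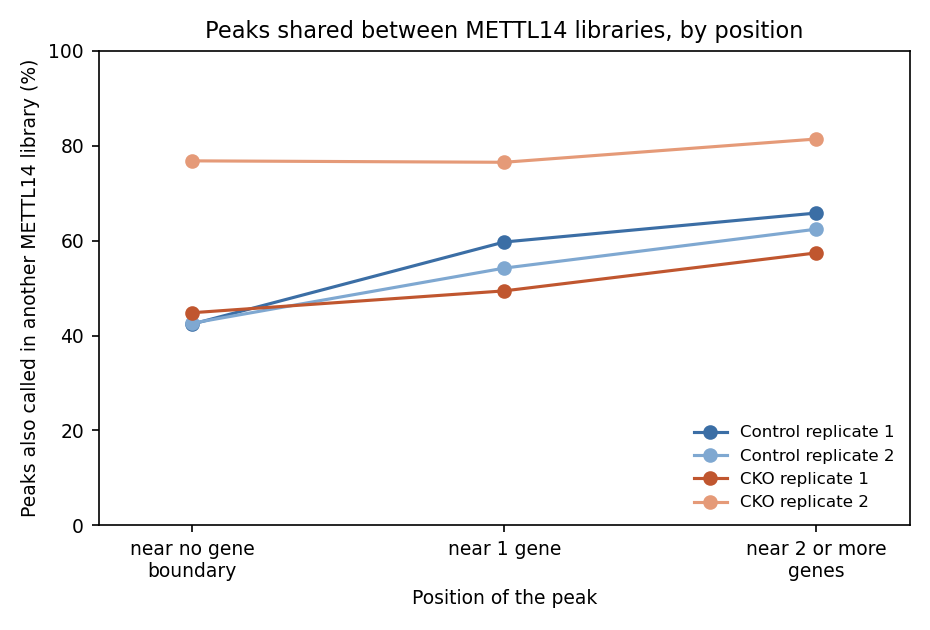
Percent of the peaks of each METTL14 library that overlap a peak of another METTL14 library, for peaks near no gene boundary, near 1 gene and near 2 or more genes (within 2 kb). Each line is 1 library; the right-hand points, 57.4 to 81.4%, lie above the middle points, 49.4 to 76.5%, in all 4 libraries.

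Of the regions called in all 4 libraries, one of the best ranked off the mitochondrial DNA lay at chr13:119790926-119791128, in the overlap of Zfp131, a zinc finger gene, and the gene model Gm46390, at positions 258 and 384 of the control lists and 248 and 211 of the CKO lists. At Dph3–Oxnad1 (chr14:32085420-32085586), whose starts are 36 bp apart, the positions were 308, 586, 351 and 512. Dph3 takes part in making diphthamide, a modified residue of elongation factor 2. At both pairs every library called the same place.

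Rita1–Ddx54 carried 2 regions, both called in all 4 libraries. One lay between the genes at chr5:120612704-120612881, at positions 517 and 597 in the controls and 484 and 297 in the CKO libraries. The other lay 85 bp from the Ddx54 start and inside that gene at chr5:120613167-120613342, at positions 363, 367, 305 and 465. Prkar1b–Dnaaf5, a regulatory subunit of protein kinase A beside an assembly factor of axonemal dynein, also had 2 regions. One, at chr5:139149888-139150063, was called in all 4 libraries and the other, at chr5:139149540-139149694, in the controls only. Pip5k1c–Cactin is a tandem pair of a lipid kinase gene and a gene for a spliceosome-associated protein. Its region at chr10:81320946-81321138 reached the Cactin start and was called in all 4 libraries at positions 349, 639, 379 and 283.

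Genes for heterochromatin protein 1 and for hnRNP proteins stand side by side at a couple of loci, and both had METTL14 regions. Hnrnpa2b1 encodes an hnRNP known as a reader of m6A-marked RNA, and Cbx3 encodes HP1 gamma. Their starts are 106 bp apart, and the region at chr6:51470065-51470381, 317 bp wide, was called in all 4 libraries at positions 617, 437, 610 and 729. The individual peaks were shifted against each other and together reached from the gap into Cbx3. Cbx5, for HP1 alpha, and Hnrnpa1, for another hnRNP, start 39 bp apart. One region on the Cbx5 side (chr15:103239547-103239805) was called in both controls and CKO replicate 1, and one on the Hnrnpa1 side (chr15:103240097-103240264) in Control replicate 1 and CKO replicate 1. CKO replicate 2 called neither.

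Genes of DNA replication, repair and the cell cycle gave further pairs. Mcm4, a subunit of the replicative helicase, and Prkdc, the catalytic subunit of DNA-dependent protein kinase, shared a region at chr16:15637610-15637763 inside Prkdc, called in all 4 libraries at positions 2226, 1906, 1961 and 644. Vps35–Orc6, where Orc6 is part of the origin recognition complex, had a region in 3 libraries and none in CKO replicate 2. Ccna2, for cyclin A2, and its neighbour Bbs7 had one in 3 libraries, Control replicate 1 lacking it. Aurka–Cstf1, a mitotic kinase gene and a gene for an mRNA 3′ end processing factor, had one in Control replicate 1 and CKO replicate 2. Of 52 listed genes of this kind with a close neighbour, 13 were at a paired-gene region (25.0%), 6 at one called in at least 2 libraries (11.5%). Over all 9174 genes with a close neighbour these shares were 13.8% and 6.30%.

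Imprinted pairs showed several regions each. Peg3 and Usp29 are paternally expressed, start 97 bp apart and point away from each other. They had 3 regions, all inside Peg3 between 992 and 1643 bp from its start. The widest (chr7:6728463-6728819, 357 bp) was called in Control replicate 2 and both CKO libraries, and Control replicate 1 called a separate one at chr7:6729322-6729470, so every library had a peak at the pair. Sgce and Peg10, also paternally expressed neighbours, had a region called in all 4 libraries at chr6:4749140-4749362, inside Peg10 and 1834 bp from its boundary facing Sgce, and a region nearer to Sgce in each control library alone. Of 13 imprinted genes with a close neighbour, these 4 were the ones at a paired-gene region (30.8%), against 13.8% of all 9174 genes with a close neighbour. The count takes both genes of Peg3–Usp29 and of Sgce–Peg10, so it does not stand for 4 separate loci.

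The map of peaks at 4 divergent pairs shows how such calls line up. At Rita1–Ddx54 and Gbx2–LOC102637806 the peaks of the 4 libraries lie on top of each other. At Hnrnpa2b1–Cbx3 they are offset along 317 bp. At Brca1–Nbr1 the control peaks and the CKO peaks do not overlap although they are neighbours.

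**Figure D5:**
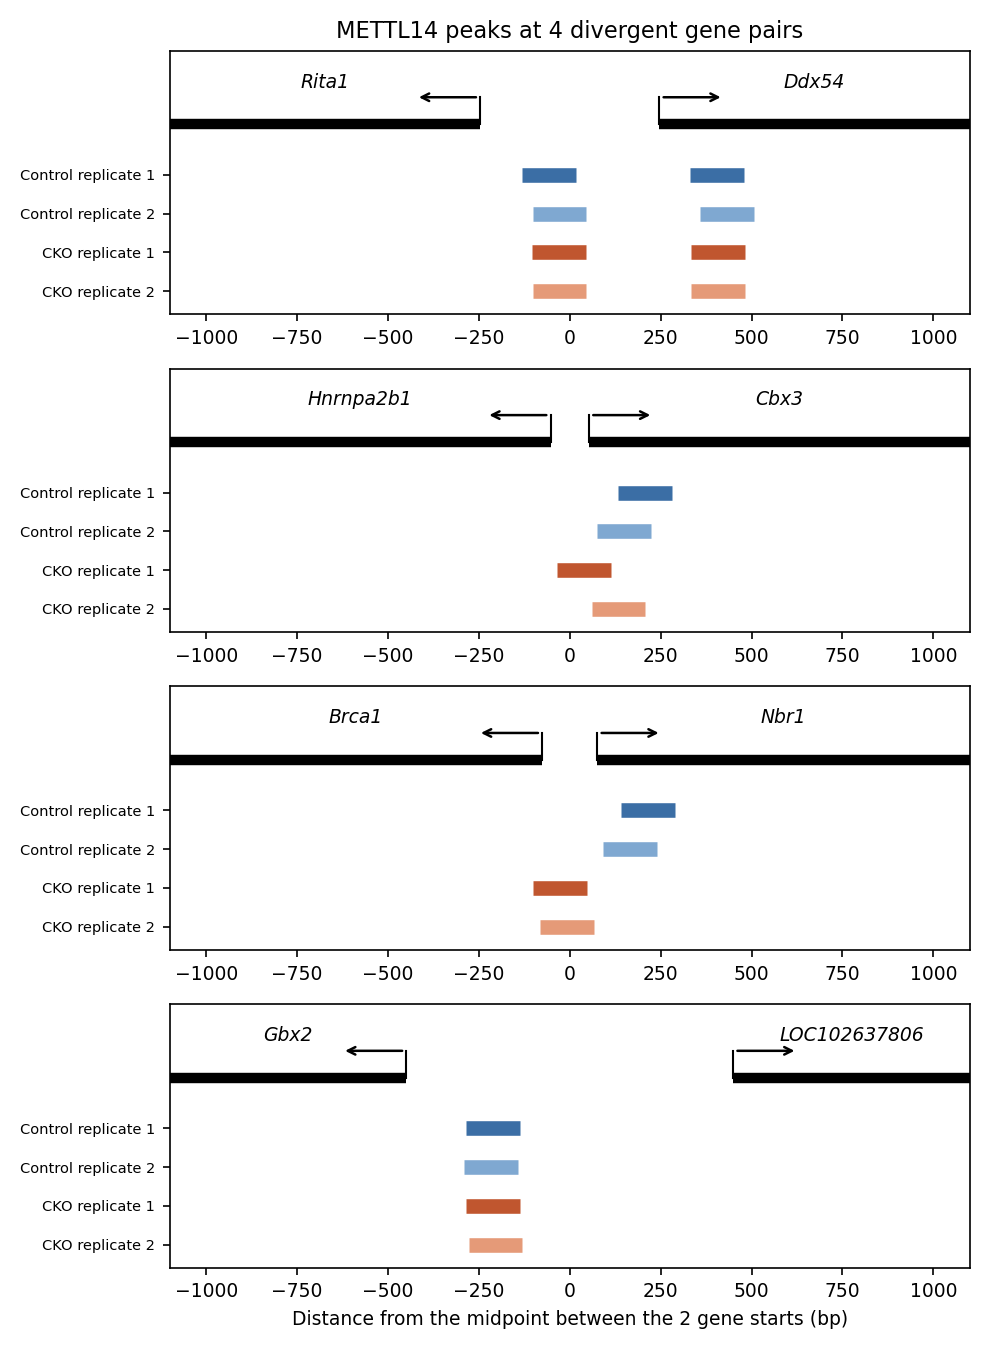
METTL14 peaks of each library at 4 divergent gene pairs, by distance in bp from the midpoint between the 2 gene starts; black bars are gene bodies, arrows mark starts and direction, coloured bars are peaks. At Brca1–Nbr1 the control peaks lie inside Nbr1 and the CKO peaks around the gap, with 23 bp between the merged regions.

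Few regions were called in both libraries of one genotype and in neither of the other. Both controls and no CKO library called 29 regions (3.73%), against 3.00% of all merged regions. Both CKO libraries and no control called 20 (2.57%), against 1.74%. These shares stand near the background, and 187 regions were called in CKO replicate 1 alone. At 13 of the 29 and 10 of the 20, a library of the other genotype had a peak in another region of the same nearest pair. At 4 pairs a control-only and a CKO-only region stood next to each other: Brca1–Nbr1 with 23 bp between them, Septin4–Mtmr4 with 22 bp, Fam90a1b–Apoo with 7 bp and L3hypdh–Jkamp with 100 bp. Brca1 encodes a DNA repair protein and Nbr1 an autophagy receptor; the CKO-only region (chr11:101551930-101552098) was at positions 585 and 755 and the control-only region (chr11:101552122-101552321) at positions 1923 and 3219, late in the control lists. At these 4 pairs both genotypes thus had peaks, called at places that did not overlap. Counted by pair, 78 of 630 nearest pairs had a peak of all 4 libraries in any of their regions, 95 of 3, 144 of 2 and 313 of 1.

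The best ranked control-only regions were at Zfp784–Zfp580 (chr7:5038229-5038388, positions 817 and 1186), at the gene models LOC108167694 and Gm20783, and at Srd5a1–Nsun2 (chr13:69611535-69611736, positions 900 and 1413). Zfp784 and Zfp580 are zinc finger genes, Srd5a1 encodes a steroid 5-alpha reductase and Nsun2 an RNA cytosine methyltransferase. Tmem79–Smg5, with a factor of nonsense-mediated decay, Cep57l1–Sesn1 and Mkks–Slx4ip followed. At Srd5a1–Nsun2, CKO replicate 1 called a separate region at chr13:69611771-69611919, and at Mkks–Slx4ip both CKO libraries and Control replicate 1 called a region at chr2:136891249-136891447. CKO replicate 1 also had a separate peak at Cep57l1–Sesn1 (chr10:41809732-41809880). Both CKO libraries had peaks elsewhere at LOC108167694–Gm20783. The best ranked CKO-only regions off the mitochondrial DNA were at Ang–Rnase4 (chr14:51089202-51089367, positions 781 and 333), ahead of the common start of a pair of secreted ribonuclease genes, and at Syngr4–Tmem143 (chr7:45896798-45896975, positions 394 and 735). Those at 1700092M07Rik–Stx5a and Brca1–Nbr1 came next. Control replicate 2 had separate peaks at Ang–Rnase4 (chr14:51088998-51089146) and at Syngr4–Tmem143 (chr7:45897474-45897622).

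Gene groups were read against all 9174 genes with a close neighbour, of which 13.8% were at a paired-gene region of any library and 6.30% at one called in at least 2 libraries. Splicing factor and hnRNP genes had 16 of 50 (32.0%), and 10 of 50 (20.0%) in at least 2 libraries. Besides the hnRNP genes above, Snrpd2, for a core protein of spliceosomal snRNPs, had a region called in all 4 libraries next to Qpctl (chr7:19149543-19149725), and Hnrnpk had one in 3 libraries next to Rmi1 (chr13:58402300-58402474). By library, 7 and 12 of these 50 genes were marked in the controls and 14 and 2 in the CKO libraries. Over all 9174 genes the shares were 6.27%, 7.75%, 8.93% and 3.53%, so in CKO replicate 2 the group (4.00%) stood near the background of that list. Cytosolic ribosomal protein genes had 13 of 57 (22.8%), and 8 of the 57 had a region of at least 2 libraries. Rpl32 beside Efcab12 (chr6:115808812-115808977) and Rpl4 beside Snapc5 (chr9:64179361-64179519) had one called in all 4 libraries. The latter region lay inside Snapc5, 64 bp from its start, and 799 bp beyond the end of Rpl4. In all groups a gene counts as marked by a region near its start or its end. Nuclear genes of the mitochondrial ribosome and respiration had 25 of 128 (19.5%), and 11 (8.59%) in at least 2. Uqcrq, a subunit of respiratory complex III, lay beside the oocyte growth factor gene Gdf9 with a region called in all 4 libraries (chr11:53430952-53431181), and Uqcrh, of the same complex, beside Lrrc41 with one called in all but CKO replicate 1.

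Regulators of chromatin and of development were read in the same way. Of 23 Polycomb, trithorax and histone demethylase genes with a close neighbour, 5 were marked (21.7%): Bmi1, Cbx6, Phf1, Rbbp4 and Setd1b. At regions of at least 2 libraries there were 2 (8.70%), near the background of 6.30%. Rbbp4 was called in CKO replicate 1 only and Setd1b in Control replicate 1 only. Bmi1, a subunit of Polycomb repressive complex 1, follows Commd3 in tandem. A region at chr2:18676832-18677076 across the Bmi1 start was called in both controls and CKO replicate 2, while CKO replicate 1 called a separate one at chr2:18676573-18676721. Of 15 developmental transcription factor genes outside the Hox clusters, 4 were marked (26.7%): Gbx2, Zic1, Zic4 and T. At regions of at least 2 libraries there were 3 (20.0%), since T was called in Control replicate 1 only. Gbx2 was called in all 4 libraries at positions 926 and 705 in the controls and 391 and 789 in the CKO libraries. Zic1 and Zic4, divergent genes for zinc finger factors of neural development, had a region near the head of 2 lists, at position 306 in Control replicate 1 and 309 in CKO replicate 1 (chr9:91365264-91365448), and none in the other 2 libraries.

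For the genes of m6A itself, 3 of 10 with a close neighbour were marked (30.0%), against 13.8% of all 9174 genes with a close neighbour. They were Hnrnpa2b1 in all 4 libraries, Hnrnpc in CKO replicate 1 only and Prrc2a in Control replicate 1 only. At regions of at least 2 libraries there was 1 (10.0%), against 6.30%. The Prrc2a region lay between the ends of the convergent genes Bag6 and Prrc2a. Of 6 pluripotency factor genes only Trim28 was marked (16.7%), by Control replicate 2, and of 8 immediate early genes only Ier3 (12.5%), also by Control replicate 2. Zinc finger genes named Zfp had 18 of 136 (13.2%), near the background. The counts are descriptions without a test. Both genes of a pair count where both are in a group, so the counts do not stand for separate loci.

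Some pairs carried many regions. LOC108167694–Gm20783 had 6, and Hes7–Aloxe3, Mepce–Zcwpw1 and the mitochondrial ND1–ND2 had 5 each. Hes7 is a repressor of the somite segmentation clock and Aloxe3 an epidermal lipoxygenase gene; the region between them at chr11:69124385-69124554 was called in all 4 libraries at positions 389, 740, 287 and 419, and the other 4 regions in 1 or 2 libraries. Mepce encodes the capping enzyme of 7SK RNA and Zcwpw1 a histone methylation reader. Their regions were called in 4, 3, 1, 1 and 1 libraries.

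Mitochondrial DNA held 10 of the regions, around 10 of its 13 protein-coding genes, which are packed with almost no space between them. The 2 best ranked of all paired-gene regions lay beyond the end of CYTB, at chrM:15467-15708 and chrM:16055-16221, each called in all 4 libraries. The first was at positions 14, 14, 14 and 15 of the lists, the second at 22, 26, 25 and 23. The 3 regions with 4 or more genes were in the stretch from COX3 to CYTB, and 2 of these 3 were called in 1 library. By library, 9 and 5 of the mitochondrial genes were near a region called in Control replicates 1 and 2, and 10 and 10 near one called in CKO replicates 1 and 2. These counts rest on few peaks, since a single region can be near as many as 5 genes. Control replicate 2 had no peak at ND4–ND5, where such regions lie. Without mitochondrial DNA, 768 regions remained, 58 of them called in all 4 libraries.

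METTL3 peaks, from lists of 242 to 353 peaks, overlapped 5 of the 778 regions (0.643%), against 3.34% of all merged METTL14 regions. The interval of the paired-gene share was 0.275 to 1.50%. The share was 1.04% (0.736 to 1.48%) for regions near 1 gene and 5.39% for regions near none. Mitochondrial DNA held 4 of the 5, and chrM:15467-15708 was overlapped in all 4 METTL3 libraries. The paired-gene share thus rests mainly on mitochondrial DNA, and the single-gene share without it is not given here. Among the 768 regions off mitochondrial DNA, the only one overlapped was a Pip5k1c–Cactin region called in CKO replicate 1 only (chr10:81320398-81320546). METTL3 in Mettl14 Control replicate 1 overlapped it. Widening the METTL3 peaks by 500 bp gave 10 regions. The METTL3 lists come from another antibody and from cells labelled Mettl14 Control and Mettl14 CKO.

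The 2 kb limit split similar regions. There were 18 regions whose second gene lay 1900 to 2000 bp away, 8 of them called in at least 2 libraries and 2 in all 4. Just outside, at 2001 to 2100 bp, there were 18, of which 7 were called in at least 2 libraries and 0 in all 4.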

How the data were processed

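Peaks were deposited as 1 list per library in mm10 coordinates, and the deposited score is 1 throughout. HOMER, SAMtools, Bowtie2 2.4.1, Trimmomatic 0.38 and CASAVA are listed, without roles, in the submitters' processing notes. Neither the peak threshold nor a background library is given in the sources used here. METTL14 peaks were 149 bp wide apart from 2.

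Regions, gene distances and orientations were computed with Python 3.11.15, numpy 2.4.6 and scipy 1.17.1 and checked on simulated lists. Genes came from RefSeq (GRCm38.p6, 21900 protein-coding, 146 Hox and histone genes removed), strand and promoters from a RefSeq promoter table matching 17369 genes. Coordinates are 1-based. Named regions were the best by mean position in the lists calling them: 15 called in all 4 libraries, 6 for each genotype alone, 6 with the most genes, 5 with METTL3 peaks and up to 6 for each of 12 gene lists. One region that this rule selects is not reported here. Other regions at the same pairs, pairs with many regions, adjacent one-genotype regions and the rule for printed sequences were chosen after values were seen. The members and lists were chosen with earlier results of these data known. Libraries were compared by exact permutation, with Benjamini-Hochberg adjustment over 5 sign-flip tests. Wilson 95% intervals cover counting error only.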

Additional observations from a re-analysis of the deposited data

How the results depend on the processing

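Of 81 recomputed values, 6 changed sign and 12 counts or shares moved, counts by over 1.5 times. The other 63 include differences that kept their sign but not their size. Within 1 kb, control-only regions numbered 18, the divergent share was 78.8% and divergent minus other orientations in peaks found again was 2.48 points. Within 5 kb there were 1263 regions, 97 in all 4 libraries and 45 control-only, with 53.2% divergent and 1.93 points. With lists shortened to the shortest, 32 regions were in all 4 libraries and 10 control-only, 74.1% were divergent, and CKO minus control numbers were 0.08 (log2). The same shortening lowered the gene-start difference from 9.14 to 4.41 points and the list-share difference from 1.34 to 0.660, and took divergent minus other orientations from −0.777 to −6.10. METTL3 peaks widened by 500 bp overlapped 10 regions. Listed genes fell from 111 to 63 at regions of at least 2 libraries and to 33 at regions of both controls. Leaving out 1 library at a time gave −0.99 to 0.37 (log2) for numbers, the sign turning without CKO replicate 2. It gave 0.913 to 1.75 points for the share of a list, 5.03 to 7.31 for paired against single genes, −4.31 to 3.64 for divergent against other orientations (0.654 without Control replicate 2), 69.1 to 71.0% divergent, and 8.09 to 10.6 points for gene starts. With the replicate number as a block the differences were −0.31 (exact permutation p = 1.00) and 1.34 (exact permutation p = 0.500, the smallest possible); calls of same-numbered libraries did not deviate together (r = −0.01 across 778 regions), and no source says that a number marks a shared culture. No call was made under the main setting or any of these. Depth is unknown, so a missing peak may lie below the calling threshold. Alternatives for gene starts, and shortened lists and left-out libraries for the divergent share, were chosen after seeing the data.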
